A study of Mus musculus with 6 samples.

Results

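The genes described here handle iron and copper: the ferroxidases Cp and Heph, the reductases Steap1, Steap2, Steap3 and Steap4, the uptake genes Tfrc and Slc11a2, the ferritin heavy chain gene Fth1 and the iron exporter gene Slc40a1. A member is a gene of this list with a probe set whose platform annotation names its symbol and no other. All 10 had such a probe set, among 19938 genes measured. The list was selected on the differences between the groups on these same arrays, with the known roles of the genes, so the difference between the groups is given for its members as a description, and no p-value is attached to any of them.

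The samples were 3 arrays of cells with a hairpin against Hlx (shHLX) and 3 arrays of cells with a hairpin against luciferase (shControl). Both were URE cells, a mouse leukaemia line known as deficient in the factor PU.1, and both carried a lentiviral vector with a green fluorescent protein and were sorted for it. The cells grew in medium with supernatants of WEHI and BHK cells, and 10 ng of RNA was amplified for each array. The study asked what Hlx, a homeobox factor gene, does in blood cell differentiation and tumour growth. The labels do not say whether the replicates came from separate transductions, so the spread between them may be technical.

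Cells take up iron bound to transferrin through the transferrin receptor. In the endosome ferric iron is reduced by a STEAP enzyme and leaves through the transporter encoded by Slc11a2. Spare iron is stored in ferritin, and the exporter ferroportin, encoded by Slc40a1, releases ferrous iron that a multicopper ferroxidase such as ceruloplasmin or hephaestin oxidises for loading onto transferrin. Iron regulatory proteins bind the mRNAs of several of these genes when iron is short, steadying the transferrin receptor mRNA and holding back the translation of ferritin and ferroportin.

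Values are log2 signals of probe sets, on which a difference of 1 is a doubling, and each gene is read against itself only, since probe sets differ in brightness. The medians of the 6 arrays lay between 7.02 and 7.10. Hlx itself gave 10.08, 10.06 and 10.17 on the arrays labelled shHLX and 10.21, 10.12 and 10.20 on the shControl arrays, a difference of -0.07 (SE 0.050, limma adjusted p = 0.479), so lower Hlx RNA, which the labels lead one to look for, was not seen, and every direction below rests on the labels alone. The primary granule genes Elane (13.95 and 14.00 on average on the shHLX and shControl arrays) and Prtn3 were bright, while the leukocyte gene Ptprc was dim (6.06 and 6.01). Spi1, which encodes PU.1, averaged 10.34 in both groups, brighter than 86.5% of genes. Without arrays of other cells, its deficiency in the line cannot be judged from this value. Of 12 myeloid progenitor markers Mpo and Kit fell (limma, adjusted p under 0.05) and 10 did not pass, and Mpo did not pass without variance moderation (adjusted p = 0.0558). Over all genes 2.43% fell and 3.75% rose at this threshold, and the marker counts here stand against these shares. Without overlap between the groups, 5 of the 12 were lower and 1 was higher, against 11.4% and 14.7% of all genes. The differences of the 12 ran from -1.46 for Mpo to 0.23 for Fcgr3, and 4 were positive. The summed linear signal of the list, which its brightest genes such as Elane dominate, was 54724 to 55056 on the shHLX arrays and 58190 to 59733 on the shControl arrays. Among markers of other cells, Vsig4 rose out of 11 macrophage genes and no gene passed the test among 8 erythroid and 11 hepatocyte genes. Vsig4 was dim, and its call ended in 6 of 14 settings, among them the omission of shHLX 1, shHLX 3, shControl 2 or shControl 3 (limma adjusted p up to 0.126). The summed linear signals were 1240 to 1266 against 1208 to 1273 for the macrophage list, 880 to 932 against 935 to 979 for the erythroid list and 805 to 830 against 801 to 895 for the hepatocyte list, each with shHLX given before shControl. In these sums the macrophage and hepatocyte lists overlapped between the groups. The myeloid and erythroid sums were lower on the shHLX arrays without overlap, the erythroid ones narrowly and with no gene passing. What part these lower sums have in the results below was not tested.

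Across the members, 5 of 10 passed the threshold of an adjusted p under 0.05 that was applied to the whole table, all of them higher on the shHLX arrays: Cp, Steap1, Steap2, Tfrc and Slc40a1. Over all genes 6.18% passed in either direction, 3.75% as higher and 2.43% as lower. The groups did not overlap for 7 of the 10 members, each higher on the shHLX arrays, against 14.7% of all genes without overlap in that direction and 26.2% in either direction. Nothing is read from these shares, because the list came from the same contrast. The median difference of the members was 0.25, against -0.01 for all genes. In RNA of a whole culture, more cells that express a gene and more RNA per cell cannot be told apart.

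Cp and Heph encode the multicopper ferroxidases. Ceruloplasmin, the product of Cp, circulates in plasma, and a form anchored to the membrane occurs on several cell types. Its probe set (10490989, Entrez gene 12870, chromosome 3) read 10.79, 10.89 and 10.80 on the shHLX arrays and 7.48, 7.45 and 7.51 on the shControl arrays. The lowest shHLX value stood 3.28 above the highest shControl value, and the arrays of each group lay within a narrow band, with an SD of 0.053 on the shHLX arrays and 0.028 on the shControl arrays. The difference of the means was 3.34 (SE 0.046), a 10.2-fold ratio (95% confidence interval 9.42 to 10.9), which places Cp second among all genes by size of rise. The probe set was brighter than 91.0% of genes on the shHLX arrays and than 51.1% on the shControl arrays.

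Heph, which encodes the membrane-bound ferroxidase hephaestin, known mainly for iron export from the gut, moved far less. It read 10.83, 10.89 and 10.97 on the shHLX arrays, against 10.68, 10.76 and 10.70 on the shControl arrays. The groups did not overlap, but only 0.074 separated them. The difference was 0.18 (SE 0.051), a 1.14-fold ratio (1.05 to 1.23), and Heph was the member nearest to the threshold on its outer side. Heph passed when the variance was modelled with an intensity trend or when genes below the median of signal were dropped, and in none of the other 14 settings tried. Nearest on the inner side was Tfrc, described below, with a difference of 0.36.

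**Figure D1:**
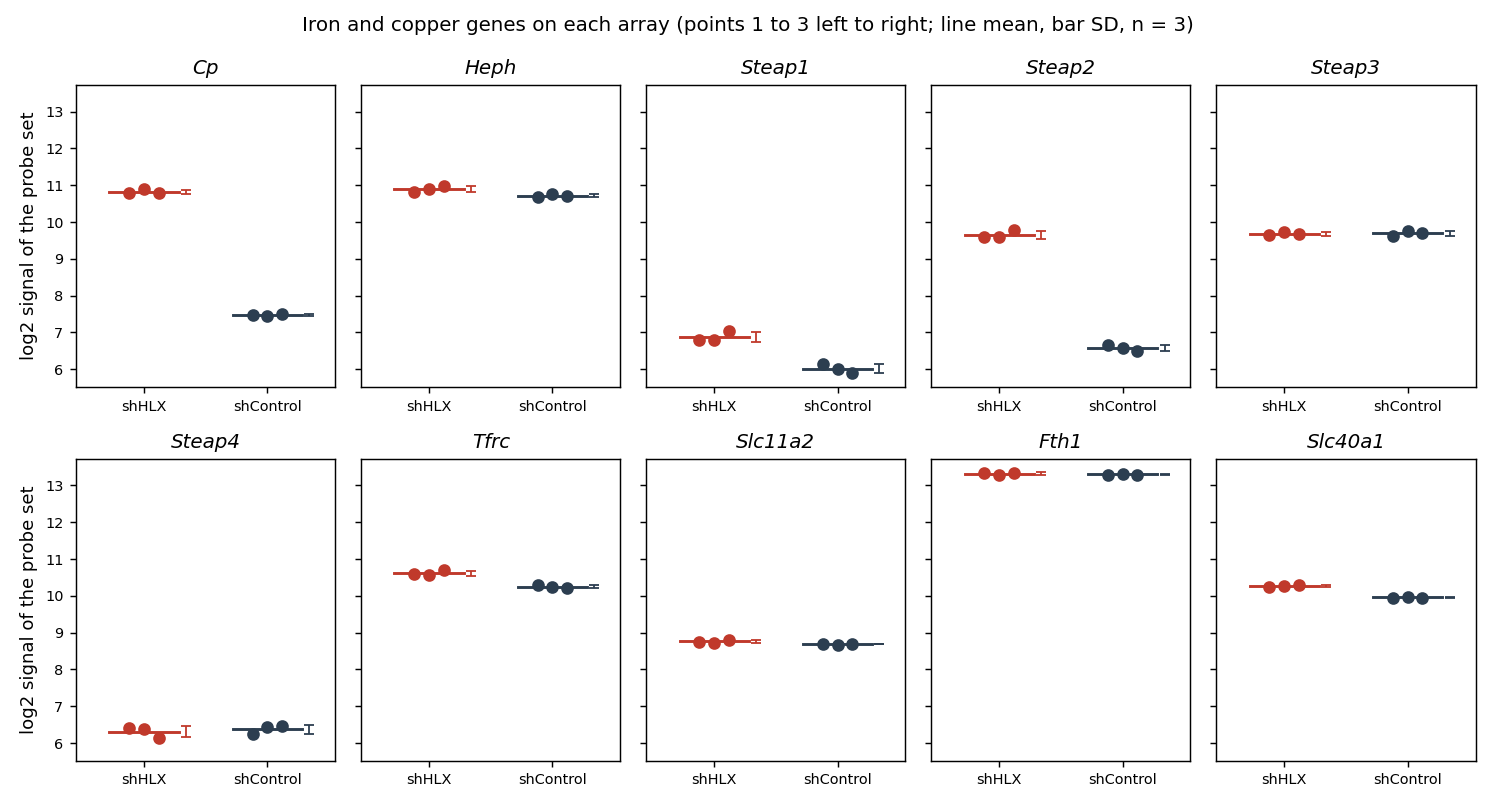
Log2 signal of each member's probe set (y axis, same scale in all panels) on the shHLX arrays (left, red) and the shControl arrays (right, dark), with arrays 1 to 3 as points, the mean as a line and the SD as a bar (n = 3 per group). Cp lies at 10.79 to 10.89 on the shHLX arrays and 7.45 to 7.51 on the shControl arrays, and Steap2 at 9.59 to 9.79 and 6.50 to 6.66, while Fth1 and Steap3 overlap.

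The STEAP proteins are membrane haem proteins that pass electrons to ferric iron and cupric copper. Steap2, Steap3 and Steap4 proteins carry an NADPH-binding reductase domain, which Steap1 lacks. Steap2 (probe set 10528008, Entrez gene 74051, chromosome 5) read 9.59, 9.59 and 9.79 on the shHLX arrays, against 6.66, 6.59 and 6.50 on the shControl arrays. Every shHLX array lay at least 2.93 above every shControl array. The difference was 3.07 (SE 0.069), an 8.41-fold ratio (7.53 to 9.40), the fifth largest rise of all genes. On the shHLX arrays this probe set was brighter than 77.5% of genes, and on the shControl arrays than 34.6%.

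Steap1, whose product can pair with the other STEAP proteins, read 6.80, 6.79 and 7.04 on the shHLX arrays and 6.14, 6.02 and 5.89 on the shControl arrays. The groups were 0.65 apart at their nearest values. The difference was 0.86 (SE 0.087), a 1.82-fold ratio (1.58 to 2.09), on a probe set brighter than 41.4% of genes on the shHLX arrays and than 22.5% on the shControl arrays. No detection values were used here, so how far the dim shControl levels of Steap1 and Steap2 lie above background is unknown, and a ratio against a dim level tends to understate a change in RNA.

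Steap3, the endosomal ferrireductase of the transferrin cycle, read 9.64, 9.74 and 9.66 on the shHLX arrays and 9.63, 9.75 and 9.70 on the shControl arrays. The groups overlapped almost completely, with a difference of -0.012 (SE 0.051), and the 95% interval of the ratio, 0.913 to 1.08, bounds the change in either direction. Steap4, known in mouse adipose tissue as a reductase induced by inflammation, read 6.42, 6.37 and 6.14 on the shHLX arrays, against 6.23, 6.43 and 6.45 on the shControl arrays. These values overlapped as well, with a difference of -0.06 (SE 0.088) and an interval of the difference of -0.27 to 0.14. Within the family, then, the levels of Steap1 and Steap2 separated the groups and those of Steap3 and Steap4 did not.

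Steap2 had a further probe set (10519484), annotated with a single accession where the brighter one carries 13. It read 5.04, 4.89 and 4.77 on the shHLX arrays and 4.92, 4.92 and 4.82 on the shControl arrays, a difference of 0.014. The 2 probe sets of Steap2 therefore disagree, and averaging them lowers the difference to 1.54. The dim probe set lay above only 13.3% of all probe sets. Its strand and position could not be checked, so whether it reads the same Steap2 mRNA is unknown. The other 9 members had 1 probe set each.

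The 2 STEAP genes that were higher are neighbours. In the RefSeq gene order of mouse assembly GRCm38.p6, no gene starts between Steap2 and Steap1 on chromosome 5, and Steap4 lies on the same chromosome beyond 16 further gene starts. Cfap69, a gene of cilia and flagella, comes before Steap2 with the predicted gene Gm40262 between them. Cfap69 is not a member. It read 5.04, 5.18 and 5.48 on the shHLX arrays and 4.42, 4.56 and 4.36 on the shControl arrays, so the groups did not overlap. It rose 1.73-fold (1.44 to 2.06, limma adjusted p = 0.00509), and it did not pass in a test without variance moderation (adjusted p = 0.0834). Its probe set was dim, brighter than 7.18% of genes.

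The next named genes on the far side of Steap1 were flat. Zfp804b differed by 0.029 (limma adjusted p = 0.895) and Tex47 by 0.014 (limma adjusted p = 0.924), both at levels near those of the dimmest genes. Gm8773, which comes before Cfap69, differed by -0.15 (limma adjusted p = 0.433). Beyond Steap4, Sri differed by 0.023 (limma adjusted p = 0.830). Around Cp on chromosome 3, Crh (-0.08), 4632415L05Rik (0.20), Hps3 (-0.017) and Hltf (0.049) had log2 differences that did not pass limma (adjusted p from 0.0763 to 0.853).

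**Figure D2:**
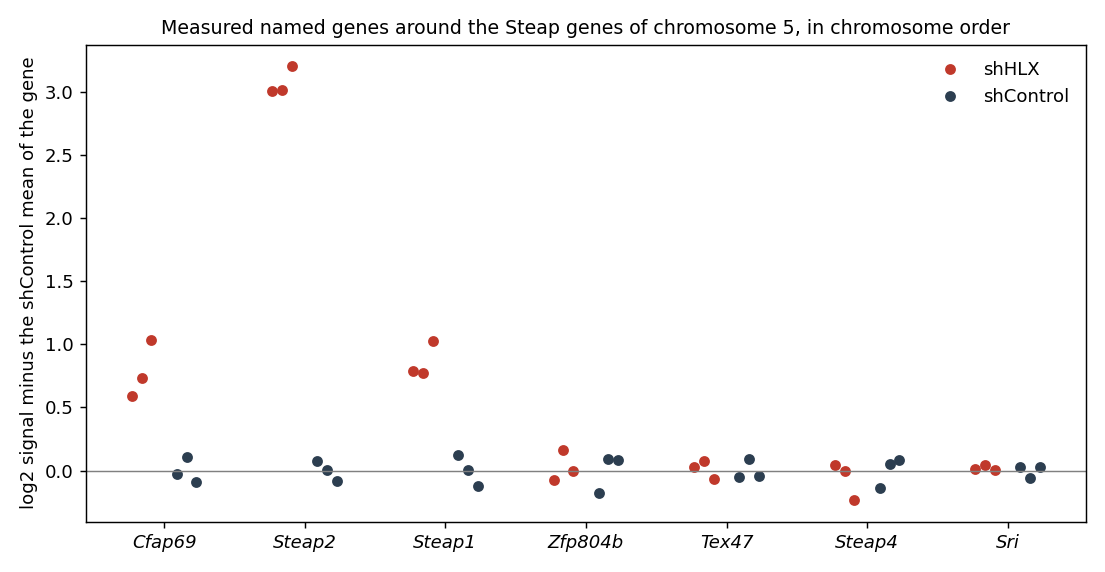
Log2 signal of each array minus the shControl mean of the same gene (y axis) for 7 measured named genes of chromosome 5 in chromosome order (x axis, not to scale), with shHLX arrays in red on the left of each pair and shControl arrays in dark on the right. Steap2 lies about 3.07 above its shControl mean, Steap1 0.86 and Cfap69 0.79 above theirs, and Zfp804b, Tex47, Steap4 and Sri overlap.

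The stretches upstream of Cp, Steap2 and Steap1 are shown because these genes had the largest differences of the list. RefSeq promoter sequences of GRCm38.p6 were matched for 7 members: Cp, Steap1, Steap2, Steap3, Steap4, Tfrc and Fth1. The 250 bases before the most upstream annotated start are given 5′ to 3′ on the gene's strand, with capitals marking a match to any of the 7 motifs named after them. They lie at chr3:19956804-19957053 (plus strand) for Cp, chr5:5694569-5694818 (minus strand) for Steap2 and chr5:5749318-5749567 (minus strand) for Steap1.
Cp: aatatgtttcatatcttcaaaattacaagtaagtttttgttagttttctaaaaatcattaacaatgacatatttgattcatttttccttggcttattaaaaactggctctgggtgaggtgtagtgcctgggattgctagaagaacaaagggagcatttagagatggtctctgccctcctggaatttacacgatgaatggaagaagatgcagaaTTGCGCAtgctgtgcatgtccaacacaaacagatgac
Steap2: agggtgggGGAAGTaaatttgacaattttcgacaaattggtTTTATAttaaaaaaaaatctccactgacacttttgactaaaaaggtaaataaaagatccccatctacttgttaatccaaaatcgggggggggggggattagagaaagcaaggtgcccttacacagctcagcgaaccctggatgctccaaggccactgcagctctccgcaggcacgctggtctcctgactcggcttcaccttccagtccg
Steap1: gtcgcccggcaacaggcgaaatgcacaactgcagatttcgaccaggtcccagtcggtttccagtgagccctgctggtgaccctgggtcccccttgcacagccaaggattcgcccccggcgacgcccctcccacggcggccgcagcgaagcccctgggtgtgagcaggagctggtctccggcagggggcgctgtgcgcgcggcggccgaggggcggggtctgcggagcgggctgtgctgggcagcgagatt

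These windows differ in base composition. The Cp window held 37.2% G and C, the Steap2 window 47.2% and the Steap1 window 70.8%, against a median of 52.4% over all promoters. Letters of 7 motifs were searched on both strands of every 250-base window, and all 7 are given. They were TTNNGCAA for C/EBP factors, ACGTG for hypoxia-inducible factors, GGAAGT for ETS factors, TAATTA for homeodomain factors, TGATGCAA for a composite of C/EBP and ATF factors, TATAAA for the TATA box and TTGCGCA for the middle of the C/EBP palindrome, which can overlap the first. They occur in 9.56%, 16.6%, 19.7%, 4.84%, 0.791%, 12.4% and 1.69% of all 32851 promoters, in that order, and upstream of any start in 10.8%, 18.5%, 22.2%, 5.65%, 0.918%, 14.3% and 1.95% of 27025 genes. The 7 members had 15 windows, more per gene than over all genes, which raises their share with any match. Counting every annotated start, TTNNGCAA lay upstream of Cp, Fth1, Steap3 and Steap4 (4 of the 15 windows), and ACGTG upstream of Steap2 and Tfrc. GGAAGT lay upstream of Steap2, Steap3 and Tfrc, and TAATTA upstream of Steap3. TATAAA lay upstream of Cp, Fth1, Steap2 and Steap4, TTGCGCA upstream of Cp, and TGATGCAA upstream of no member. Cp and Steap2 thus shared TATAAA among the 7, but not in the windows shown. For Cp it lay before the downstream start only. For Steap2 it lay in the window shown, on the opposite strand, so that it reads TTTATA there. Steap1 held none of the 7. The TTNNGCAA match of Cp belongs to its downstream start and is shown in 30 bases at chr3:19957168-19957197 (plus strand), with the motif in capitals. It was picked for display after the matches were seen.
Cp downstream start: attagttactcTTTTGCAAcattaaattgt

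Of the uptake genes, Tfrc, which encodes the transferrin receptor, read 10.58, 10.56 and 10.69 on the shHLX arrays and 10.31, 10.23 and 10.21 on the shControl arrays. The groups were 0.26 apart at their nearest values. The difference was 0.36 (SE 0.052), a 1.28-fold ratio, with an interval of the difference of 0.24 to 0.48. Slc11a2, which encodes the divalent metal transporter DMT1, read 8.75, 8.73 and 8.81 on the shHLX arrays, against 8.69, 8.68 and 8.69 on the shControl arrays. Its groups were separated by 0.039 only, the difference was 0.077 (SE 0.043) and the interval of the ratio, 0.985 to 1.13, included no change.

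Fth1, which encodes the ferritin subunit that oxidises iron for storage, was among the brightest probe sets on every array. It read 13.33, 13.29 and 13.35 on the shHLX arrays and 13.29, 13.32 and 13.29 on the shControl arrays. The groups overlapped, with a difference of 0.020 (SE 0.041) and an interval of the ratio of 0.949 to 1.08.

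Slc40a1, which encodes ferroportin, read 10.25, 10.28 and 10.29 on the shHLX arrays and 9.95, 9.97 and 9.95 on the shControl arrays. The groups were 0.28 apart and each spanned under 0.05. The difference was 0.32 (SE 0.040), a 1.24-fold ratio (1.17 to 1.33). The mRNAs of the receptor that brings iron in and of the exporter that lets it out were thus both higher on the shHLX arrays, by similar amounts.

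**Figure D3:**
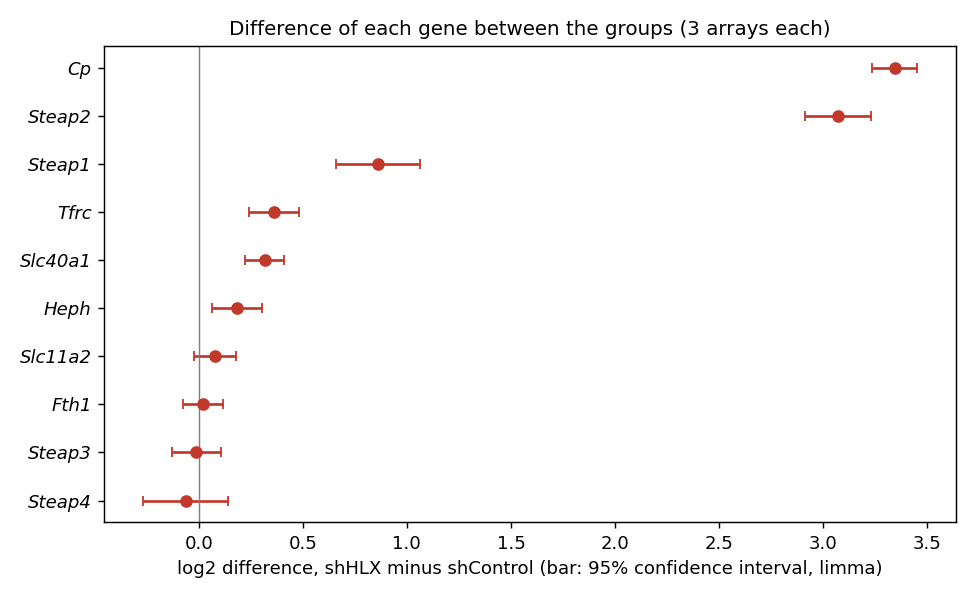
Difference in log2 signal between shHLX and shControl (x axis) for each of the 10 members, ordered by size, with the 95% confidence interval from limma as a bar (3 arrays per group). Cp (3.34) and Steap2 (3.07) stand far from the rest, Steap1 follows at 0.86, Tfrc and Slc40a1 lie at 0.36 and 0.32, and the intervals of Slc11a2, Fth1, Steap3 and Steap4 include 0.

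Within the groups the members did not all vary alike. Steap1, Steap2 and Tfrc were highest on shHLX array 3 among the shHLX arrays, whereas Cp was highest on shHLX array 2. Among the shControl arrays, Steap1, Steap2 and Tfrc were highest on array 1 and lowest on array 3, and Cp was highest on array 3. With each array left out in turn, the log2 difference was 3.31 to 3.36 for Cp, 3.01 to 3.11 for Steap2, 0.78 to 0.92 for Steap1, 0.32 to 0.39 for Tfrc and 0.31 to 0.33 for Slc40a1.

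Genes outside the list were ranked by the likeness of their pattern over the 6 arrays, by Pearson correlation. Predicted models, Rik clone genes, small RNA genes and olfactory and vomeronasal receptor genes were passed over. Those most like Cp were Hcar2 (0.9997), Igll1 (0.9996), Nt5e (0.9992), Btg1 (0.9990) and Cyyr1 (0.9989). For Steap2 they were Cped1 (0.9996), Abca9 (0.9993), Hgf (0.9993), Dgat2 (0.9991) and Maob (0.9991). These coefficients mostly restate the gap between the 2 groups of arrays, which all the genes share, and carry no test. The differences behind them ranged from 0.15 for Dgat2 to 3.72 for Hgf.

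Other genes of iron and copper handling were read from 9 lists that do not hold the members. Of 156 genes listed, 144 were measured, of which 12 rose and 6 fell (limma, adjusted p under 0.05), with a median difference of 0.023. Over all genes 3.75% rose and 2.43% fell, 6.18% together, and the counts of each list below stand against these shares. The remaining 126 of the 144 did not pass. The count was 11 without shControl 2 or without shHLX 1, and centring each array on its median gave 13 higher and 3 lower. Among the 18 changes the largest rise was 0.80 and the largest fall -0.53 on the log2 scale. They are not weighed against Cp and Steap2, which were selected on this same contrast. The lists were also drawn up with earlier results of these arrays known.

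Haem genes held the largest of these changes. Of 24 measured, 3 rose and 2 fell, with a median of 0.022. Hmox1, which encodes the haem oxygenase that opens the haem ring and frees its iron, read 8.63, 8.61 and 8.61 on the shHLX arrays and 7.78, 7.92 and 7.77 on the shControl arrays. It rose 1.74-fold (SE of the log2 difference 0.053, limma adjusted p = 0.000108), with no overlap. Alas1, the first enzyme of haem synthesis outside red cells, read 11.69, 11.68 and 11.71 on the shHLX arrays, against 12.27, 12.22 and 12.19 on the shControl arrays. Its log2 signal fell by 0.53 (limma adjusted p = 0.000286, SE 0.043). Slc48a1, a transporter that carries haem out of lysosomes, fell by 0.34 (limma adjusted p = 0.00294). The haptoglobin gene Hp rose 1.22-fold (limma adjusted p = 0.0114), as did Lrp1 (limma adjusted p = 0.00831), which encodes a receptor for haemopexin that has bound haem. The later haem synthesis genes Alad (-0.05), Urod (0.024), Cpox (0.021) and Fech (0.063) did not pass.

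**Figure D4:**
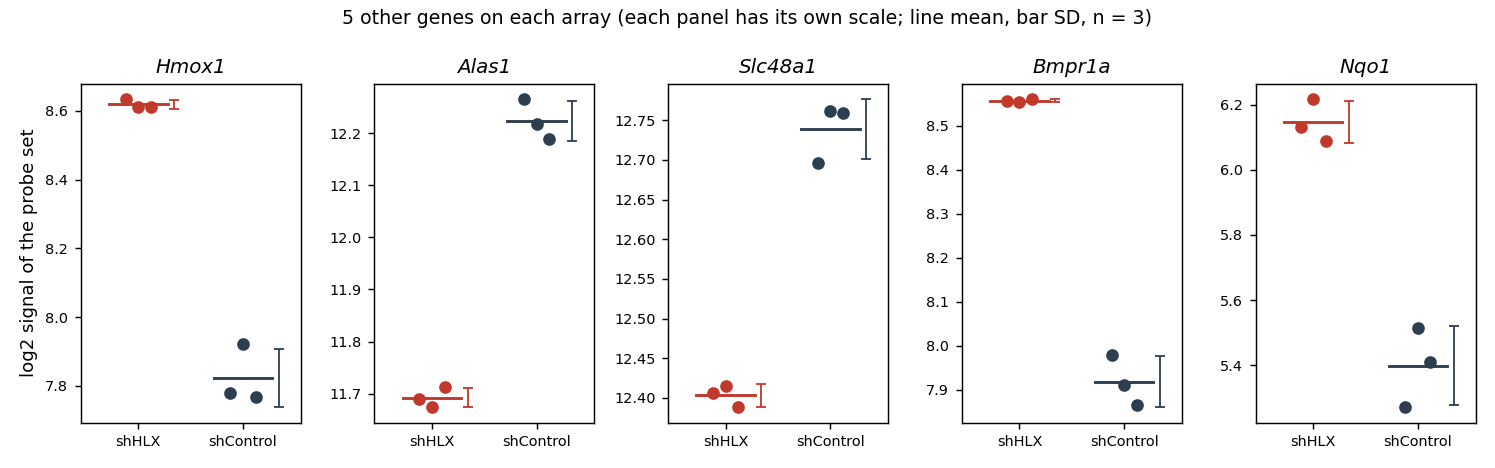
Log2 signal (y axis, separate scale in each panel) of 5 genes outside the list on the shHLX arrays (left, red) and the shControl arrays (right, dark), with the mean as a line and the SD as a bar (n = 3 per group). Hmox1 lies at 8.61 to 8.63 and 7.77 to 7.92 on the shHLX and shControl arrays, Alas1 and Slc48a1 are lower on the shHLX arrays, and Bmpr1a and Nqo1 are higher, each without overlap.

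In the hepcidin and export list, 1 of 17 measured genes rose and 1 fell. Bmpr1a, a receptor for the bone morphogenetic proteins that in liver drive the iron hormone hepcidin, read 8.56, 8.55 and 8.56 on the shHLX arrays, against 7.98, 7.91 and 7.86 on the shControl arrays. It rose 1.56-fold (1.45 to 1.68, limma adjusted p = 0.000162). Smad5, a carrier of that signal, fell by 0.17 (limma adjusted p = 0.0461). The hepcidin gene Hamp (0.10) and the third multicopper ferroxidase gene Hephl1 (-0.17) did not pass, at dim levels of 5.31 and 5.36 on the shHLX arrays and 5.21 and 5.53 on the shControl arrays.

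Among 7 measured genes of the iron regulatory proteins and of other mRNAs that carry their binding element, 1 rose and 1 fell. Fbxl5, which marks iron regulatory protein 2 for destruction when iron is plentiful, rose 1.29-fold (1.17 to 1.41, limma adjusted p = 0.00943). It did not pass in a test without variance moderation (adjusted p = 0.0695). The phosphatase gene Cdc14a, whose mRNA carries the element in human cells, fell by 0.33 (limma adjusted p = 0.00709). The genes of the regulatory proteins themselves, Aco1 (0.050) and Ireb2 (0.027), did not pass.

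Of 10 measured genes of ferritin storage and turnover, Ncoa4, which delivers ferritin to lysosomes, rose 1.13-fold (limma adjusted p = 0.0384). The ferritin light chain gene Ftl1 differed by 0.12 and did not pass (limma adjusted p = 0.168). None of 14 measured genes of the transferrin cycle and ferrous uptake passed limma. At an unadjusted p under 0.05 that list held 1 gene, Slc39a8 (-0.11). Trf, the transferrin gene, differed by 0.033. Of 26 genes of iron-sulphur clusters and mitochondrial iron, Ciao2b, an assembly factor of the cytosol, rose 1.19-fold (limma adjusted p = 0.0497).

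Of 20 copper genes, 2 rose and 1 fell. Slc31a2, a copper transporter of intracellular membranes, rose 1.19-fold (limma adjusted p = 0.0142), and Cox19, a factor in the assembly of cytochrome oxidase, rose 1.13-fold (limma adjusted p = 0.0482). Sco1, which delivers copper to cytochrome oxidase, fell by 0.23 (limma adjusted p = 0.0395). The copper pump gene Atp7a, whose product supplies copper to secreted enzymes, differed by 0.28 and lay just outside the threshold (limma adjusted p = 0.0550). The copper importer gene Slc31a1 (0.11) and the metallothionein genes Mt1 (0.0059) and Mt2 (0.033) did not pass.

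Of 11 phagocyte iron genes, Lcn2, whose product binds bacterial iron carriers, rose 1.32-fold (1.21 to 1.44, limma adjusted p = 0.00474). Of 15 genes that bear on lipid peroxides, Nqo1, a quinone reductase, rose 1.68-fold (SE of the log2 difference 0.069, limma adjusted p = 0.000622), on a dim probe set that read 6.13, 6.22 and 6.09 on the shHLX arrays and 5.27, 5.51 and 5.41 on the shControl arrays, and the cystine transporter gene Slc7a11 rose 1.29-fold (limma adjusted p = 0.00604). Gch1, the first enzyme of tetrahydrobiopterin synthesis, fell by 0.25 (limma adjusted p = 0.0438). Nfe2l2, which encodes NRF2, a factor known to act on Hmox1, Nqo1 and Slc7a11, differed by 0.044 and did not pass (limma adjusted p = 0.628). Gclm (0.14, limma adjusted p = 0.0928) and Gclc (0.11, limma adjusted p = 0.264), on which NRF2 is also known to act, did not pass either. The arrays read RNA and not the activity of the NRF2 protein, and its part in the changes of Hmox1, Nqo1 and Slc7a11 was not tested.

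**Figure D5:**
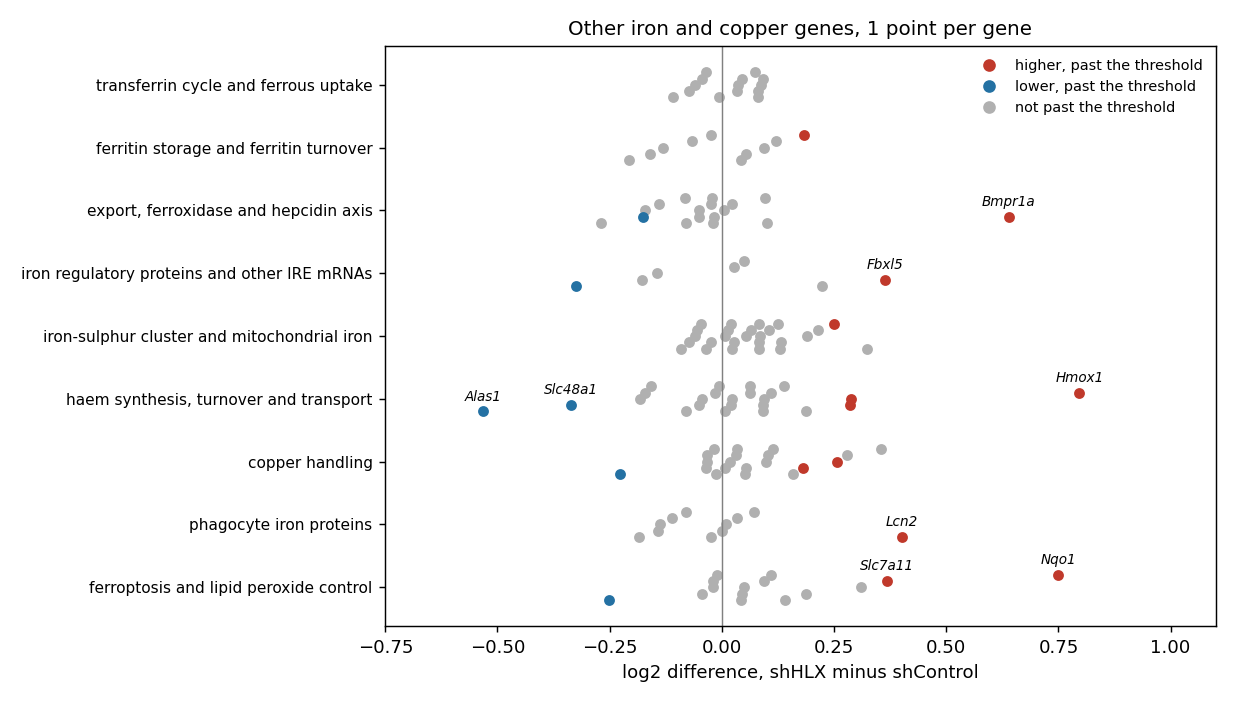
Log2 difference between shHLX and shControl (x axis) for each measured gene of the 9 further lists (y axis), 1 point per gene, in red where higher and blue where lower past an adjusted p under 0.05 by limma, and grey otherwise. Most points lie near 0, Hmox1 (0.80), Nqo1 (0.75) and Bmpr1a (0.64) lie farthest to the right and Alas1 (-0.53) farthest to the left.

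The calls of Hmox1, Alas1, Slc48a1, Hp, Lrp1, Bmpr1a, Fbxl5, Cdc14a, Lcn2, Nqo1 and Slc7a11 held whichever array was left out. Those of Ncoa4, Smad5, Cox19 and Gch1 did not survive the loss of any single array, and their adjusted p reached 0.144, 0.193, 0.188 and 0.120. Ciao2b was lost without any array but shControl 3 (up to 0.150), Sco1 without any but shControl 1 (up to 0.160), and Slc31a2 without shControl 1, shControl 2, shHLX 1 or shHLX 2 (up to 0.0561), all by limma. With every array kept, centring on the array median also ended the calls of Smad5, Cox19, Sco1 and Gch1. A second quantile normalization ended those of Ciao2b and Gch1, and a block for the replicate number ended every call named here as lost. Gch1, on a dim probe set, was not called in 11 of 14 settings.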

How the data were processed

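RNA of 6 samples was measured on Affymetrix arrays. The deposited values are log2 signals, 1 column per array and 35556 probe sets. RMA, a method that subtracts background, aligns the arrays' distributions and sums up probes, and Affymetrix Power Tools 1.178 are named in the submitters' processing notes. No source used here gives the probe set build. Of the probe sets, 21789 had exactly 1 symbol, and a gene with several took the brightest, leaving 19938 genes with no filter on dim signal. Of these probe sets 21698 matched the RefSeq table of GRCm38.p6 by Entrez identifier. Gene order, chromosomes and the Entrez identifiers given above were looked up in that table by gene symbol. The test was two-sided, in limma 3.58.1 (R 4.3.3, functions lmFit and eBayes) without covariates, adjusted by Benjamini-Hochberg over all genes, with a threshold of 0.05. Intervals are limma's 95% confidence intervals. Precision is limited by having 3 arrays a group: the median gene had an SD of 0.073 between replicates. The code was tested on simulated data.

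The members, lists and tests were chosen with earlier results of these data known. Genes named are the 10 members, Hlx and every called gene of the 9 lists. They also include the 5 genes most like Cp and Steap2, among those ranked, and the neighbours of Cp and of the Steap1 and Steap2 pair. Other genes were named after their values were seen. The 16 alternatives cover normalization, centring, dim signal, the variance model, probe set choice, array weights, a block for the replicate number and the omission of each array. The 7 promoter motifs were first searched in a trial run, so their choice is not independent of the matches.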

Additional observations from a re-analysis of the deposited data

How the results depend on the processing

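Since the members were selected on this contrast, their calls under the 16 alternatives are no support. An intensity trend gave 6 members, Heph being added, and the filter at the median added Heph and left Steap1 untested. Leaving out 1 array gave 5 members, 11 to 13 of the other iron and copper genes, 698 to 901 of all genes (1233 with every array kept) and a difference of Hlx from -0.10 to -0.052. Over all genes it was 766 without shHLX 1, 806 without shControl 2 and 698 without shControl 3. The count over all genes was 2064 above the median of signal, where fewer genes were tested, and 2261 with an intensity trend, which gave 31 of the other iron and copper genes (18 without it). With the replicate number as a block the counts were 5 members, 13 other genes and 800 of all genes. The deviations of same-numbered arrays correlated at -0.17, 0.13 and -0.15, and those of differently numbered arrays at -0.25 to 0.34. With 3 arrays a group, these values cannot settle whether the numbers pair the arrays. A second quantile normalization moved Slc40a1 to 0.29. Dim signal limits what can be said of Steap1, Steap4, Cfap69, Nqo1, Gch1 and Vsig4.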
